A study of Mus musculus with 76 samples.

Results

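The right ventricle (RV) of old female C57Bl/6J mice was compared between a Western diet (WD) and a normal diet (ND) at the later of the female collections, 640 days of age. The comparison holds 10 of the 76 libraries of the series: 5 ND libraries (F26 to F30) and 5 WD libraries (F31 to F35), chosen by their diet, sham exposure (0 cGy) and collection age. WD mice had eaten the Western diet for a period of mid-adult life and then chow until collection, and ND mice had eaten chow throughout, so the contrast is of a past diet in aged, unirradiated wild-type mice. Poly-A RNA was sequenced, and counting was limited to the final 500 bp of every gene model, at its 3′ side. Which of the differences stay when RNA quality is taken into account, and when libraries with almost the same counts are treated as 1, was asked of each gene group.

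The RV wall is built of cardiomyocytes, and between them lie endothelial cells, fibroblasts and resident macrophages. Cardiac macrophages clear debris, present antigen on class II MHC molecules and are the main source of C1q, the recognition molecule that starts the classical complement pathway. Cardiac cells also run the circadian clock, in which the CLOCK and BMAL1 proteins bind E-box sequences and switch on Per, Cry and Rev-erb genes as well as the transcription factors Dbp, Hlf and Tef. These 3 factors in turn bind D-box sequences in further genes, and the transcripts of this output arm rise and fall strongly over the day.

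The libraries held 12690702 to 19629175 gene counts each, and 10995 genes had more than 20 counts in each of the 39 sham libraries and were tested. Levels are given as CPM, the counts scaled to library size with edgeR's TMM factors, and differences as log2 fold changes, WD minus ND. Markers of ventricular cardiomyocytes were high in every library, with a summed level of 56797 to 79713 CPM. Xist was between 46.8 and 132 CPM, and the 4 Y-linked genes checked had no counts except 3 in F29. The RNA integrity number (RIN) of the ND libraries was 6.0, 5.4, 4.9, 4.1 and 5.6 in F26 to F30, and that of the WD libraries was 7.7, 6.9, 6.8, 6.2 and 6.5 in F31 to F35. The groups did not overlap: RIN was 5.20 ± 0.731 (SD, n = 5) in ND and 6.82 ± 0.563 (SD, n = 5) in WD, a difference of 1.62 (two-sided exact permutation test, p = 0.00794, the smallest this design can give). Diet and RIN therefore cannot be fully told apart in these libraries. Among the 45 pairs of libraries, F32, F33 and F35 differed from each other by a mean chi-square of 1.76 to 2.61 per gene and F29 from F30 by 3.27, where counting error alone gives about 1, while the next pair, F26 and F27, stood at 12.3. The labels give them as separate samples, so the 10 libraries were kept apart in the first fit, and the near-identical ones were summed in a further fit with 3 WD and 4 ND columns. Counted in this way the RIN difference was 1.59 (two-sided exact permutation test, p = 0.0571, where the smallest possible p is 0.0286). The first principal component carried 65.2% of the variance and ran from -47.5 in ND F28 to 43.9 in WD F31, which also had the lowest and the highest TMM factor (0.791 and 1.24).

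Without RIN in the model, 4873 genes (44.3% of those tested) passed an adjusted p of 0.05 in edgeR's quasi-likelihood test, 2533 higher on WD (23%) and 2340 lower (21.3%). With edgeR's own looser filter 5404 of 14280 genes (37.8%) were called. With RIN in the model 147 genes (1.34%) were called, 74 higher (0.673%) and 73 lower (0.664%). With the near-identical libraries summed, and no RIN, 1953 genes (17.8%) were called, 1126 higher (10.2%) and 827 lower (7.52%). When the RIN slope was instead shared by all 8 groups of sham libraries of both sexes, 2090 genes (19%) were called, 980 higher (8.91%) and 1110 lower (10.1%). Of the 147 genes called with RIN, 141 had been called without it, all in the same direction, and 119 were called without RIN, with RIN and with libraries summed (66 higher, 53 lower). With libraries summed and RIN in the model together, edgeR called 0 genes, with 1094 at an unadjusted p under 0.05 and 182 called by DESeq2. The calls with RIN rested on a few libraries: leaving out F35, F26, F33 or F32 left 2, 6, 7 or 22 genes, and leaving out F28 gave 276. The 1953 calls with libraries summed fell to 0 without F32, F33 and F35, 44 without F29 and F30, 78 without F31, 684 without F27 and 808 without F28. Group medians are therefore given beside the counts of calls. Over all genes tested the median difference was 0.02 without RIN, 0.00 with RIN and 0.02 with libraries summed. Every WD library lay above every ND library in 15.7% of the genes tested, and below in 14.9%.

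**Figure D1:**
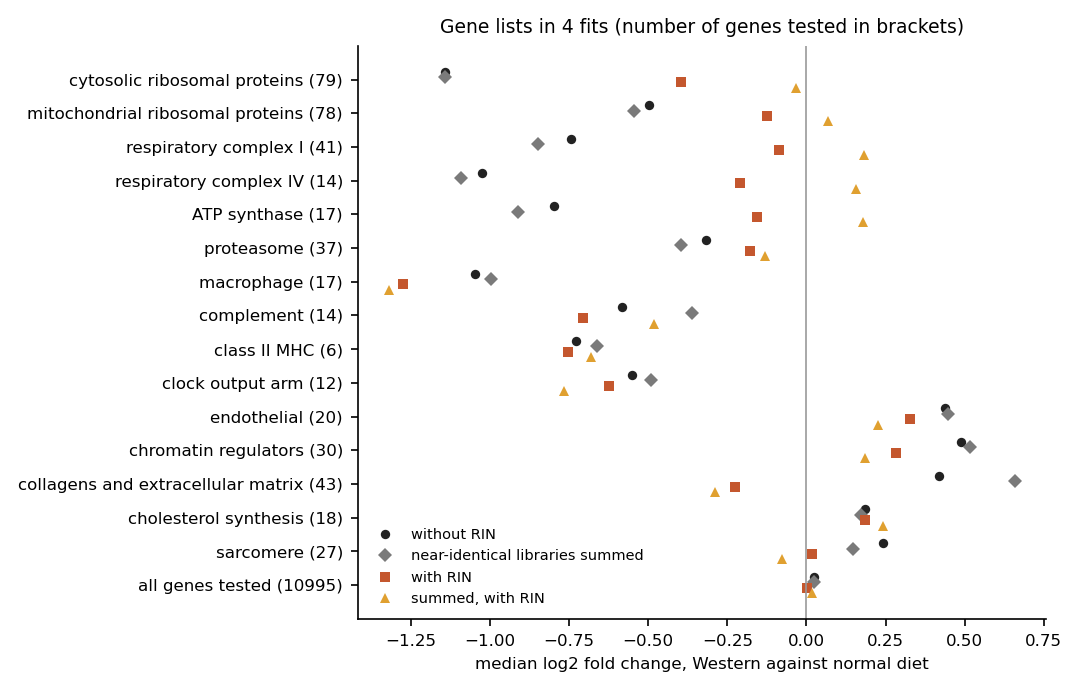
Median log2 fold change of each gene list, WD against ND, with 1 symbol for each of 4 fits (without RIN, near-identical libraries summed, with RIN, and summed with RIN), and the number of genes tested in brackets. The macrophage, complement, class II MHC and clock output lists lie below 0 in all 4 fits, while the ribosomal and respiratory lists, from -1.14 for cytosolic ribosomal proteins without RIN, move to within 0.40 of 0 once RIN is in the model.

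Macrophage genes were lower on WD, with a median difference of similar size in each fit. Of 20 macrophage markers, 17 passed the filter on counts, and 14 of these 17 were called lower without RIN, 10 with RIN, 9 with libraries summed and 12 with the shared RIN slope, against none called higher. The median difference was -1.05 without RIN, -1.28 with RIN, -0.997 with libraries summed and -1.32 with both. The sign was negative for 17 of 17 genes in each of these fits. The summed level of the 20 markers was 1635, 1113, 1369, 1244 and 1280 CPM in ND F26 to F30, and 723, 516, 529, 718 and 530 CPM in WD F31 to F35. The groups did not overlap, and 11 of the 17 genes taken singly lay wholly lower on WD, against 14.9% of all genes tested. DESeq2 called 12 of the 17 lower with RIN, and 12 with libraries summed and RIN, where edgeR called 0 with 14 at an unadjusted p under 0.05. In bulk tissue, fewer macrophages and less of these RNAs per macrophage cannot be told apart. With RIN in the model the 10 calls were lost on leaving out F26 or F35, and 1 was left on leaving out F32 or F33, while the median stayed between -1.002 and -1.50.

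The C1q genes, which encode the 3 chains of the complement recognition molecule, moved together. They lie side by side on chromosome 4 (GRCm39): C1qb (ENSMUSG00000036905) at chr4:136606009-136613511, C1qc (ENSMUSG00000036896) at chr4:136616466-136620376 and C1qa (ENSMUSG00000036887) at chr4:136623223-136626161, all on the minus strand. C1qb had 205, 140, 178, 156 and 160 CPM in ND and 70.8, 61.5, 59.8, 82.0 and 60.5 CPM in WD. It was 2.5-fold lower on WD, with no overlap (log2 difference -1.32, SE 0.12, edgeR adjusted p = 8.4e-05; -1.41 and p = 0.017 with RIN; -1.26 and p = 0.014 with libraries summed). C1qa had 217, 155, 197, 190 and 186 CPM in ND and 91.2, 84.5, 90.2, 107 and 84.3 CPM in WD (log2 difference -1.05, edgeR adjusted p = 0.00012; p = 0.022 with RIN). C1qc differed by -1.22 (edgeR adjusted p = 0.00014; p = 0.022 with RIN). Each of the 3 genes was below its whole ND range in 5 of 5 WD libraries.

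Of the receptors and adaptors of macrophages, Tyrobp, Fcer1g and C3ar1 followed the same order. Tyrobp, the signalling adaptor that pairs with many myeloid receptors, had 45.3, 23.7, 35.6, 30.2 and 28.3 CPM in ND and 12.1, 11.96, 10.1, 15.2 and 11.2 CPM in WD (log2 difference -1.43, edgeR adjusted p = 0.00024; p = 0.025 with RIN; p = 0.019 with libraries summed). Fcer1g, which encodes the gamma chain shared by Fc receptors, differed by -1.36 (edgeR adjusted p = 0.00059; p = 0.023 with RIN). C3ar1, the receptor for the complement fragment C3a, had 29.9, 15.6, 17.7, 15.5 and 14.4 CPM in ND and 10.5, 5.11, 5.52, 8.08 and 5.57 CPM in WD (log2 difference -1.41, edgeR adjusted p = 0.0012; p = 0.022 with RIN). All 3 were lower in every WD library than in every ND library. Adgre1, which encodes the macrophage surface marker F4/80, had 71.1, 19.4, 17.9, 20.9 and 18.1 CPM in ND and 18.8, 7.71, 5.19, 9.83 and 5.30 CPM in WD. Here F26 was far above the other ND libraries and F31 lay inside the ND range. The log2 difference of Adgre1 was -1.63 (edgeR adjusted p = 0.013), -0.997 without F26 (p = 0.023), -2.93 with RIN (p = 0.027) and -1.48 with libraries summed (p = 0.097).

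Enzymes and lysosomal genes of macrophages gave the same direction. Lyz2, the myeloid lysozyme, had 554, 357, 448, 409 and 436 CPM in ND and 220, 145, 150, 227 and 143 CPM in WD (log2 difference -1.32, edgeR adjusted p = 0.00031; p = 0.022 with RIN). Cbr2, a carbonyl reductase marking resident macrophages, had 48.3, 63.8, 69.3, 58.0 and 63.1 CPM in ND and 24, 19.9, 19.6, 29.8 and 21.3 CPM in WD (log2 difference -1.40, edgeR adjusted p = 8.4e-05; p = 0.022 with RIN; p = 0.014 with libraries summed). Cd68, a lysosomal glycoprotein, differed by -1.02 (edgeR adjusted p = 0.0011), with p = 0.052 once RIN was in the model. Over the 24 settings run, most of them without RIN in the model, its difference was -0.89 to -1.32. Levels in WD were below the ND range in all 5 libraries for these 3 genes. The remaining 3 macrophage markers were not called: Mrc1, the mannose receptor, differed by -0.33 (edgeR adjusted p = 0.052), Cd163, the haemoglobin scavenger receptor, by -0.32 (p = 0.18) and Ccr2, the receptor of monocyte-derived cells, by -0.32 (p = 0.25). Without F31 these 3 passed the threshold, at -0.45 for Mrc1, -0.49 for Cd163 and -0.54 for Ccr2. Csf1r, the growth factor receptor on which macrophages depend, differed by -0.52 (edgeR adjusted p = 0.011) and by -0.75 with RIN (p = 0.13). The differences were therefore not of 1 size across the list.

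**Figure D2:**
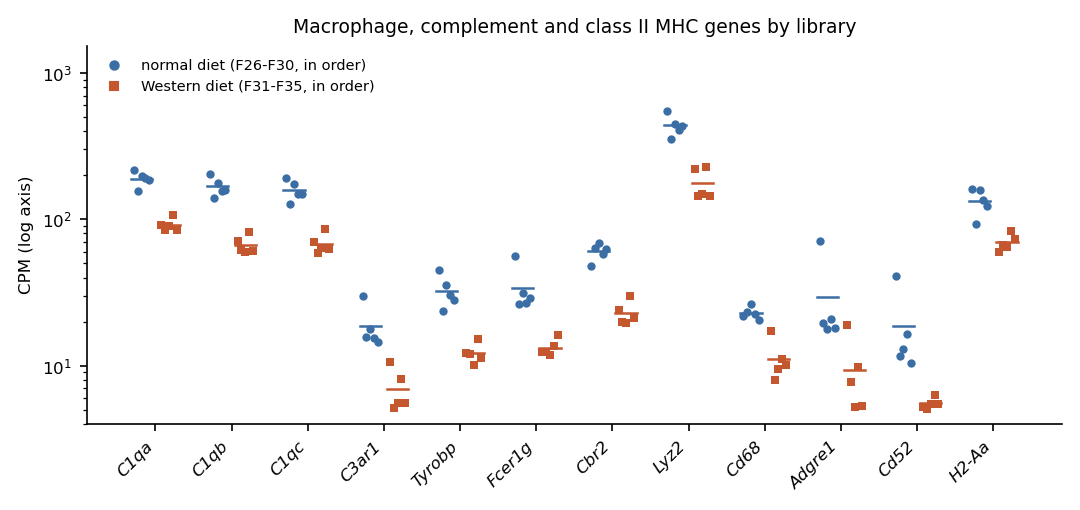
CPM on a log axis for 12 macrophage, complement and class II MHC genes, with 1 point for each ND library (F26 to F30) and each WD library (F31 to F35) and a line at each group mean. WD points lie under the ND points for each gene drawn except Adgre1, where F31 (18.8 CPM) falls among the ND libraries and F26 (71.1 CPM) stands above them.

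Among the genes named for the size of their decrease or for passing in all 3 fits were several that leukocytes express. No fixed list of leukocyte genes was set and no share over all genes was taken, so they are described singly. Wfdc17, a secreted protein of activated macrophages, had 16.7, 16.3, 13.2, 17.3 and 15.02 CPM in ND and 5.15, 3.02, 5.26, 6.95 and 4.16 CPM in WD (log2 difference -1.67, edgeR adjusted p = 0.00014; p = 0.025 with RIN; p = 0.014 with libraries summed). Slamf9, a myeloid receptor, had 32.2, 12.5, 17.01, 13.5 and 14.2 CPM in ND and 4.84, 5.76, 6.37, 6.77 and 5.37 CPM in WD (log2 difference -1.63, edgeR adjusted p = 0.00067; p = 0.025 with RIN). Both were separated between the diets in every library. Cd52, a surface glycoprotein of lymphocytes and myeloid cells, differed by -1.75 (edgeR adjusted p = 0.0022) and by -1.21 without F26, where it stood at 41.2 CPM against 10.5 to 16.3 CPM in the other ND libraries. Rac2, a small GTPase of haematopoietic cells, differed by -1.67 (edgeR adjusted p = 0.0092), and by -0.89 without F26, which had 56.6 CPM against 11.3 to 13.7 CPM. Of these, Wfdc17, Slamf9 and Cd52 passed the threshold without RIN, with RIN and with libraries summed, and Rac2 missed it with libraries summed (p = 0.064). Clec4a2, Ms4a7, Ly86, Cd48 and Arhgdib passed in all 3 fits too, with differences of -1.04 to -1.49 without RIN. Ms4a7 is also counted in the macrophage list and Cd52 in the B and plasma cell list.

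Complement genes ran lower on WD, with 14 of 14 below 0 without RIN and with RIN and 11 of 14 with libraries summed. Of 14 complement genes tested, 8 were called lower without RIN, 4 with RIN, 4 with libraries summed and 7 with the shared RIN slope, and none higher. The median difference was -0.58 without RIN, -0.71 with RIN, -0.36 with libraries summed and -0.48 with both, and with RIN it was -0.36 without F31. The 4 genes called with RIN were C1qa, C1qb, C1qc and C3ar1, and the C1q genes are also counted in the macrophage list. Those 4 calls fell to 0 without F26 or F35 and to 1 without F32 or F33. C3, the central component, had 174, 276, 244, 329 and 322 CPM in ND and 358, 113, 106, 222 and 105 CPM in WD and was not called (log2 difference -0.57, edgeR adjusted p = 0.17). F31 held the highest C3 level of the 10 libraries, and without it the difference was -0.98 (p = 0.0087). Class II MHC genes, which present peptides to T cells, were called lower for 6 of 6 genes tested without RIN, with a median of -0.73. With RIN the median was -0.75 (-0.41 without F26) and edgeR and DESeq2 called 0 of 6, with 6 at an unadjusted p under 0.05 in each. With libraries summed 3 of 6 were called, and with the shared RIN slope 1 of 6 (median -0.65). Taken singly, 2 of the 6 genes lay wholly lower on WD, against 14.9% of all genes tested. H2-Aa, the alpha chain of I-A, had 160, 92.5, 159, 136 and 124 CPM in ND and 59.5, 66.9, 64.9, 83.5 and 72.9 CPM in WD (log2 difference -0.95, edgeR adjusted p = 0.00068; p = 0.12 with RIN). Over the 24 settings run its difference was -0.74 to -1.06. Of 12 B and plasma cell markers 3 were tested and called lower without RIN (1 with RIN), with Cd74 also counted among the class II MHC genes, and of 14 T and NK cell markers 1 was tested and called lower without RIN.

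Clock output genes were lower on WD and also kept their size with RIN in the model. The output arm list holds 12 genes, all of them tested. Without RIN 8 were called lower and 1 higher, with RIN 5 lower, with libraries summed 7 lower and with the shared RIN slope 7 lower. Over all genes tested 21.3%, 0.664%, 7.52% and 10.1% were called lower in the same order, and 23% were called higher without RIN. The median difference was -0.55 without RIN, -0.62 with RIN, -0.49 with libraries summed and -0.77 with both. The 12 genes together summed to 693, 746, 601, 659 and 635 CPM in ND and to 590, 468, 459, 452 and 461 CPM in WD. These sums did not overlap, with F31 close to the ND range, and 7 of the 12 genes lay wholly lower on WD, against 14.9% of all genes tested. With libraries summed and RIN, edgeR called 0 of the 12, with 9 at an unadjusted p under 0.05, and DESeq2 called 5. With RIN in the model, leaving out F26 or F35 left 0 of the 5 calls and leaving out F32 or F33 left 1, with medians over the libraries left out between -0.57 and -0.72. The sources used here give no hour of collection for the mice, and its part in the result was not tested.

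Promoters of 3 of the output genes that carry the clock motifs named above are shown. Each is the window from 250 bases before to 50 bases after the RefSeq start, 300 bases in all (RefSeq table on GRCm38.p6, placed by a single exact match in GRCm39). Capitals mark the E-box CACGTG or the D-box TTATGTAA, both searched on both strands (the E-box reads the same on each). The Ciart window lies at chr3:95789491-95789790 on the minus strand, the Tef window at chr15:81686624-81686923 on the plus strand and the Per3 window at chr4:151129073-151129372 on the minus strand.
Ciart: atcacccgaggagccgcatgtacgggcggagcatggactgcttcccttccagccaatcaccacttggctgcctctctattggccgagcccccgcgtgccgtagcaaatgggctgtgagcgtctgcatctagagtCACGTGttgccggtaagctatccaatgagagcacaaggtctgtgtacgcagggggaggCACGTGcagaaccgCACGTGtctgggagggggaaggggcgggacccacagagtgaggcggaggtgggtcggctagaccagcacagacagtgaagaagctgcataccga
Tef: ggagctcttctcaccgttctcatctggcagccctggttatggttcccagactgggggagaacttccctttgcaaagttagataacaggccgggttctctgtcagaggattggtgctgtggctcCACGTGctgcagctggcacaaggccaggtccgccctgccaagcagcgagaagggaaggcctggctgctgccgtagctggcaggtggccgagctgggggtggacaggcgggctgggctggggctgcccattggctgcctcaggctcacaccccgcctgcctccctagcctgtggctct
Per3: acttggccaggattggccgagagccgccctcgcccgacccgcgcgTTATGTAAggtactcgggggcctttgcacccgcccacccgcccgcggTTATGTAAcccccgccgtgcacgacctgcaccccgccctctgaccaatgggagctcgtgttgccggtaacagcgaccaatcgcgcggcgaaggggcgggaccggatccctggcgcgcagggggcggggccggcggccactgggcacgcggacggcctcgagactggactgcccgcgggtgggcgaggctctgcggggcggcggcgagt
Ciart held 3 E-boxes, Tef 1 E-box and Per3 2 D-boxes. An E-box was found in 7.15% of the 32851 windows in the table and in 11.9% of the 8480 tested genes with a window, and in 4 of the 10 output arm genes with a window (Bhlhe41, Ciart, Per1 and Tef). A D-box was found in 0.938% of all windows, in 0.649% of tested genes and in 1 of the 10 (Per3). A match is only a run of letters in this window.

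Dbp, Hlf, Tef and Ciart were among the output genes called in each of the 3 fits. Dbp (ENSMUSG00000059824; chr7:45354512-45359627) had 127, 136, 98.9, 120 and 111 CPM in ND and 57.2, 42.7, 42.4, 53.9 and 47.2 CPM in WD. It was 2.4-fold lower on WD with no overlap (log2 difference -1.28, SE 0.11, edgeR adjusted p = 8.4e-05; -1.41 and p = 0.013 with RIN; -1.20 and p = 0.014 with libraries summed). Hlf had 23, 29.9, 29.5, 26.3 and 25.5 CPM in ND and 14.3, 10.6, 8.61, 12.03 and 12.02 CPM in WD (log2 difference -1.21, edgeR adjusted p = 0.00015; p = 0.025 with RIN; p = 0.014 with libraries summed). Tef, the third factor of this family, had 172, 186, 190, 179 and 182 CPM in ND and 127, 115, 112, 112 and 111 CPM in WD, a smaller change with a narrow spread (log2 difference -0.65, SE 0.07, edgeR adjusted p = 0.0002; p = 0.025 with RIN; p = 0.02 with libraries summed). Ciart, a repressor of CLOCK and BMAL1 and the gene with 3 E-boxes above, had 17.2, 19.5, 12.3, 11.1 and 9.37 CPM in ND and 4.16, 6.12, 5.91, 3.38 and 6.31 CPM in WD (log2 difference -1.44, edgeR adjusted p = 0.00081; p = 0.047 with RIN). All of these were separated between the diets in every library.

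The period and cryptochrome genes, the repressors of the loop, split. Per2 had 27.6, 30.5, 23.3, 28.6 and 28.1 CPM in ND and 22.7, 11.5, 10.2, 10.5 and 11.2 CPM in WD, where F31 came close to the ND range (log2 difference -1.05, edgeR adjusted p = 0.0019; p = 0.028 with RIN; p = 0.047 with libraries summed). Per3, with its 2 D-boxes, differed by -0.62 (edgeR adjusted p = 0.0024) and missed the threshold with RIN (p = 0.099). Its difference lay between -0.50 and -0.89 over all 24 settings. Cry2 differed by -0.36 (edgeR adjusted p = 0.028), and by -0.36 with RIN (p = 0.38). Cry1 was lower on WD too, by -0.35 to -0.61 over the 24 settings run, of which 19 called it. Most of the 24 settings have no RIN in the model, so that count says little about Cry1 with RIN. Per1 went the other way with 38.4, 40.8, 33.1, 41.6 and 34.02 CPM in ND and 77.2, 47.0, 46.8, 34.6 and 42.8 CPM in WD, and was not called (log2 difference 0.41, edgeR adjusted p = 0.078). The Per1 window also holds an E-box. Nr1d2, which encodes REV-ERB beta, differed by -0.48 (edgeR adjusted p = 0.00076; p = 0.077 with RIN), and by -0.43 to -0.56 over all 24 settings. Nr1d1, which encodes REV-ERB alpha, was called higher without RIN at 0.47 (edgeR adjusted p = 0.045), while with RIN its difference was 0.03. In the opposite arm, Clock itself had 17.7, 17.8, 17.2, 13.6 and 13.3 CPM in ND and 26.3, 28.4, 29.8, 23.4 and 29.1 CPM in WD (log2 difference 0.78, edgeR adjusted p = 0.00049; 0.63 and p = 0.11 with RIN; p = 0.024 with libraries summed). Of the 5 opposite arm genes tested, 1 was called higher (Clock) and 2 lower without RIN. With edgeR's looser filter 7 were tested, and 3 were called higher and 2 lower without RIN.

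**Figure D3:**
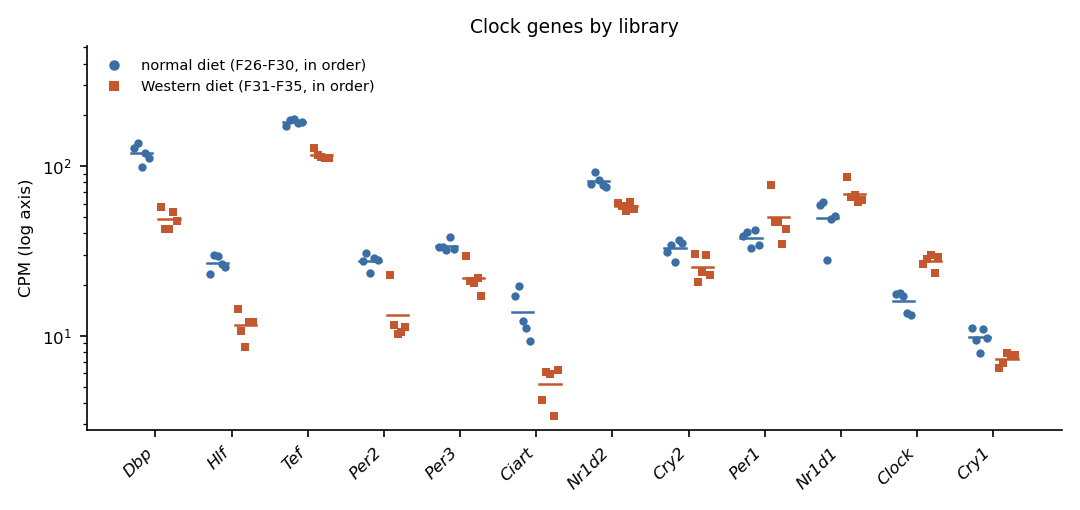
CPM on a log axis for 12 clock genes, with 1 point for each ND library (F26 to F30) and each WD library (F31 to F35) and a line at each group mean. Dbp, Hlf, Tef and Ciart separate the diets in every library, with Dbp at 98.9 to 136 CPM in ND and 42.4 to 57.2 CPM in WD, whereas Per1 overlaps and Clock lies higher on WD.

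Endothelial genes were higher on WD without RIN, and few were called when RIN was added. All 20 markers were tested: 15 were called higher without RIN, 2 with RIN, 11 with libraries summed and 11 with the shared RIN slope, and none lower. The median difference was 0.44 without RIN, 0.33 with RIN and 0.22 with libraries summed and RIN. The summed level was 2411 to 2762 CPM in ND and 2555 to 3071 CPM in WD, so the groups overlapped in the sum while taken singly 13 of the 20 genes lay wholly higher on WD and 1 wholly lower. Over all genes tested 15.7% lay wholly higher and 14.9% wholly lower. Cldn5, a tight junction protein of endothelium, had 27.7, 31.8, 28.5, 24.7 and 20.2 CPM in ND and 52.8, 52.4, 60.1, 55.8 and 59.3 CPM in WD (log2 difference 1.08, edgeR adjusted p = 0.00013; 1.11 and p = 0.022 with RIN; p = 0.014 with libraries summed). Kdr, which encodes the VEGF receptor VEGFR2, had 104, 95.7, 81.2, 91.2 and 86.1 CPM in ND and 234, 250, 230, 154 and 242 CPM in WD (log2 difference 1.28, edgeR adjusted p = 0.00013; 1.03 and p = 0.036 with RIN). These were the 2 endothelial genes called with RIN, and the 2 calls fell to 0 without F26, F32, F33 or F35 and to 1 without F27, F30 or F31. With libraries summed and RIN edgeR called 0, with 2 higher at an unadjusted p under 0.05, and DESeq2 called 1. Cdh5, which encodes VE-cadherin, differed by 0.98 without RIN (edgeR adjusted p = 0.00092) and by 0.50 with RIN (p = 0.26), and Cd93 by 0.92 (p = 0.00058) and 0.47 with RIN (p = 0.17). Pecam1, which encodes CD31, differed by 0.42 (edgeR adjusted p = 0.006) and by 0.15 with RIN (p = 0.63). With RIN, 10 of the 20 genes were higher at an unadjusted p under 0.05, and DESeq2 called 3. Smooth muscle and pericyte markers also ran higher without RIN, with 6 of 10 called higher and 2 lower (median 0.35). Their summed level was 744 to 870 CPM in ND and 884 to 925 CPM in WD. With RIN edgeR called 0 of them (median 0.19), with 2 higher at an unadjusted p under 0.05 and 1 called by DESeq2.

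Extracellular matrix genes depended on F31 and on RIN. Of 43 genes tested, 14 were called higher and 5 lower without RIN, and 1 higher with RIN. The median difference was 0.42 without RIN, 0.14 without F31, -0.23 with RIN and 0.66 with libraries summed. The summed level of the list was 4427 to 4868 CPM in ND and 4688 to 4788 CPM in 4 WD libraries, against 8734 CPM in F31. Col1a1, the alpha 1 chain of type I collagen, had 59.2, 55.0, 43.0, 51.2 and 49.3 CPM in ND and 333, 75.2, 76.4, 74.5 and 73.1 CPM in WD (log2 difference 1.30, edgeR adjusted p = 0.021; 0.54 without F31, p = 0.0012; -0.10 with RIN, p = 0.94). The gene called with RIN was Col5a3, a minor chain of type V collagen, with 14.7, 10.2, 7.94, 9.13 and 8.61 CPM in ND and 65.5, 43.5, 43.2, 40.3 and 41.3 CPM in WD. Its mean was 4.6-fold higher on WD, and every WD library was above every ND library (log2 difference 2.2, SE 0.18, edgeR adjusted p = 7.8e-05; 1.57 and p = 0.013 with RIN; 2.25 and p = 0.013 with libraries summed). Mmp14, a membrane-bound collagenase, differed by 1.52 (edgeR adjusted p = 0.00033) and by 0.82 with RIN (p = 0.087). Eln, which encodes elastin, differed by 1.55 (p = 0.0012) and by 0.70 with RIN (p = 0.35). Fibroblast markers were mostly lower or not called: of 14 tested, 1 was called higher (Col1a1) and 6 lower without RIN, and none with RIN, with medians of -0.31 and -0.34.

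The nuclear RNAs Malat1 and Neat1 and most chromatin regulators were higher on WD. Long non-coding RNAs as a list went both ways, with 7 of 19 called higher and 6 lower without RIN and a median of -0.05. Malat1, a long non-coding RNA retained in nuclear speckles, had 91.2, 77.2, 49.4, 70.6 and 84.2 CPM in ND and 357, 318, 308, 195 and 335 CPM in WD. It was 4.1-fold higher with no overlap (log2 difference 2.02, SE 0.19, edgeR adjusted p = 8.4e-05; 1.52 and p = 0.022 with RIN; p = 0.014 with libraries summed). Neat1, the scaffold of paraspeckles, had 471, 333, 273, 523 and 504 CPM in ND and 1107, 1056, 1015, 837 and 1010 CPM in WD (log2 difference 1.26, edgeR adjusted p = 0.00046; 1.15 and p = 0.073 with RIN). Of 30 chromatin regulators, 24 were called higher and none lower without RIN, 16 higher with libraries summed, 12 higher with the shared RIN slope and 1 higher with RIN, and the median went from 0.49 to 0.28 with RIN. The 1 called with RIN was Chd7, a chromatin remodeller, with 8.64, 9.61, 6.74, 8.38 and 8.50 CPM in ND and 16.2, 17.5, 17.6, 16.8 and 19 CPM in WD (log2 difference 1.05, edgeR adjusted p = 0.0001; 1.03 and p = 0.022 with RIN). Kmt2d, a histone H3 lysine methyltransferase, differed by 1.37 (edgeR adjusted p = 0.0019) and by 0.61 with RIN (p = 0.41). Chd7 thus kept its size with RIN, and the estimate for Kmt2d fell with it.

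Fatty acid uptake and beta-oxidation genes ran lower on WD without RIN, with 9 of 22 called lower, none higher and a median of -0.34. Their summed level was 16728 to 25183 CPM in ND and 11666 to 15496 CPM in WD, with no overlap. With RIN the median was -0.03, edgeR and DESeq2 called 0 and 3 were lower at an unadjusted p under 0.05 in edgeR. With libraries summed 1 was called lower, beside 7.52% over all genes tested, while the median was -0.34 with 18 of 22 negative. Of 18 genes tested in the cholesterol synthesis list, 7 were called higher and 2 lower without RIN, with a median of 0.18. Hmgcs1, an early enzyme of that pathway, differed by 0.64 (edgeR adjusted p = 0.0017; 0.38 and p = 0.31 with RIN), while Ebp, a late one, differed by -0.62 (p = 0.00087; -0.35 and p = 0.24 with RIN). The cholesterol list therefore held members in both directions. Lpl, the lipase that releases fatty acids from circulating triglyceride, had 2504, 2593, 2358, 2388 and 2362 CPM in ND and 3784, 4916, 4829, 3553 and 4897 CPM in WD (log2 difference 0.85, edgeR adjusted p = 0.00057; 0.83 and p = 0.072 with RIN; p = 0.032 with libraries summed). Plin2, which coats lipid droplets, differed by -0.37 (edgeR adjusted p = 0.002; p = 0.11 with RIN), and by -0.32 to -0.43 over the 24 settings run. Pfkfb2, the heart form of the enzyme that sets the fructose bisphosphate signal driving glycolysis, had 30.1, 24.6, 19.6, 28.8 and 27.4 CPM in ND and 49.0, 70.6, 69.3, 48.4 and 74.3 CPM in WD (log2 difference 1.25, edgeR adjusted p = 0.00027; 1.26 and p = 0.038 with RIN; p = 0.019 with libraries summed). Lpl and Pfkfb2 were each higher in every WD library.

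**Figure D4:**
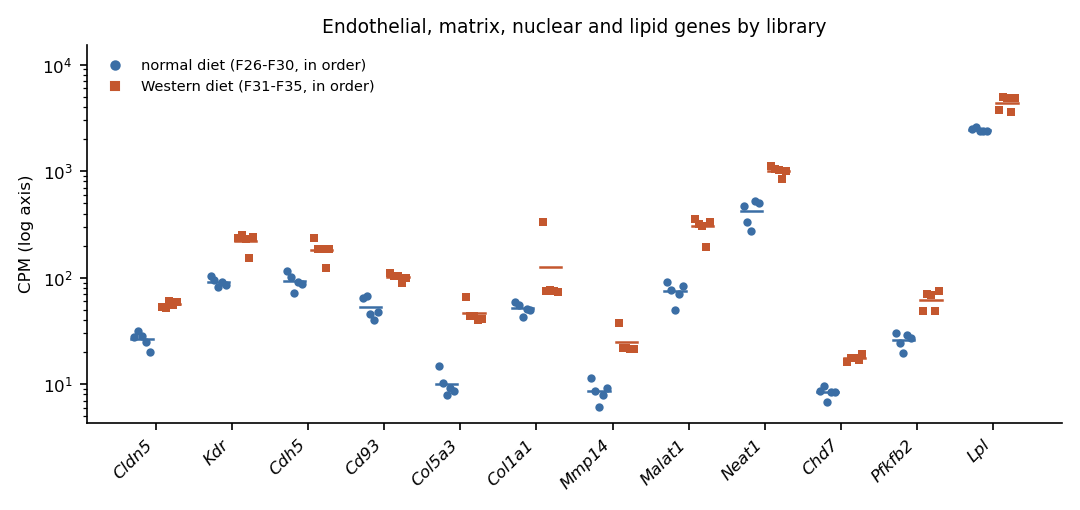
CPM on a log axis for 12 endothelial, matrix, nuclear, chromatin and lipid genes, with 1 point for each ND library (F26 to F30) and each WD library (F31 to F35) and a line at each group mean. WD points lie above the ND points for each gene drawn, and for Col1a1 the WD mean is set by F31 (333 CPM against 73.1 to 76.4 CPM in the other WD libraries).

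Genes of protein synthesis and respiration were the largest block of decreases without RIN, and edgeR called none of them with RIN. Of 79 cytosolic ribosomal protein genes 77 were called lower, with a median of -1.14. With RIN the median was -0.40, edgeR called 0 with 5 at an unadjusted p under 0.05, and DESeq2 called 1, and with libraries summed and RIN it was -0.03. The summed level was 38259, 39608, 78734, 54534 and 51068 CPM in ND and 15763, 22804, 24582, 31987 and 23780 CPM in WD, with F28 highest and F31 lowest. Rps28, a small protein of the 40S subunit, had 246, 258.6, 652, 397 and 343 CPM in ND and 84.2, 120, 146, 177 and 133 CPM in WD (log2 difference -1.52, edgeR adjusted p = 0.0013; -0.60 and p = 0.38 with RIN). With libraries summed 60 of the 79 were called lower. The shared RIN slope left 67 called lower with a median of -0.57. That fit held 39 libraries, so it differs from the fit with RIN in its libraries as well as in its slope. Many ribosomal protein genes have processed pseudogenes of nearly the same sequence, and counts of single members are uncertain for that reason. Respiratory chain subunits and ATP synthase were also lower without RIN, with 72 of 86 genes called (median -0.78). With libraries summed 8 were called lower, near the background share of 7.52%, while the median was -0.86 with 85 of 86 negative. The shared RIN slope left 36 called lower, and with RIN 0 were called by edgeR or DESeq2, with 1 higher and 2 lower at an unadjusted p under 0.05 in edgeR (median -0.12). Cox7c, a subunit of cytochrome c oxidase, had 887, 986, 2133, 1330 and 1287 CPM in ND and 295, 549, 651, 711 and 618 CPM in WD (log2 difference -1.23, edgeR adjusted p = 0.0032; -0.33 and p = 0.65 with RIN). Proteasome subunits fell in 22 of 37 genes without RIN, with 1 higher, and edgeR called 0 with RIN, with 5 lower at an unadjusted p under 0.05 and 1 called by DESeq2 (median -0.32 and -0.18). Mitochondrial ribosomal proteins were called lower in 56 of 78 genes without RIN and in 0 with RIN by edgeR or DESeq2, with 1 at an unadjusted p under 0.05 (median -0.50 and -0.13).

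The difference between diets also varied with transcript length across genes. Among 634 genes with transcripts of up to 1000 bases the median difference was -0.66, among 1811 genes of 1000 to 2000 bases -0.26, among 4032 genes of 2000 to 4000 bases 0.01 and among 4512 longer genes 0.18. Short genes thus ran lower on WD and long genes higher. With RIN in the model these medians were -0.16, -0.09, -0.01 and 0.07. The Spearman correlation between the difference and transcript length over 10989 genes was 0.46 without RIN and 0.22 with RIN, given as a description, since genes share libraries and are not independent. Genes called higher had a median length of 4636 bases and genes called lower 1908 bases, against 3466 over all. The cytosolic ribosomal list has a median length of 1096 bases, the respiratory complex I list 971, the macrophage list 1852, the clock output arm 5181 and the chromatin list 8988. By these medians the cytosolic ribosomal, complex I and macrophage lists lie in the length classes that ran lower as a whole, and the clock output arm in the class that ran higher. The part of length in each list's difference was not tested.

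**Figure D5:**
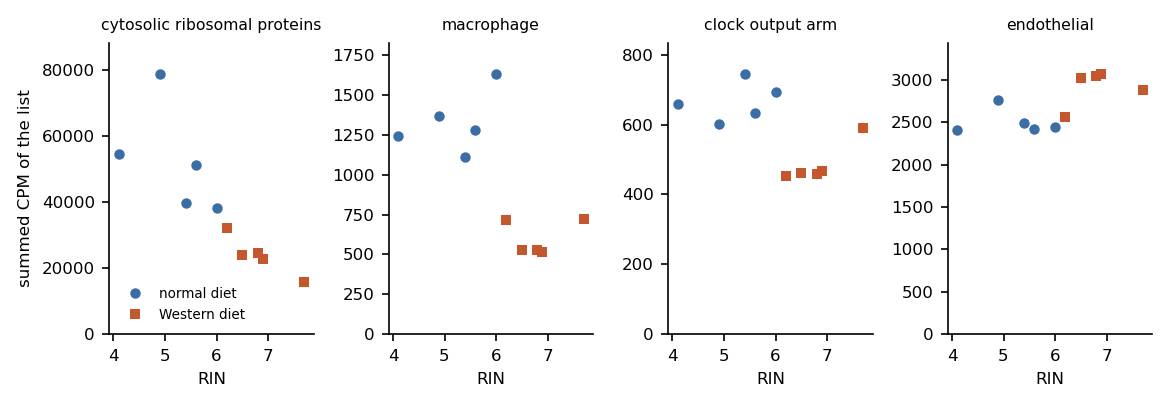
Summed CPM of 4 gene lists against RIN, with 1 point for each library, circles for ND and squares for WD. The ribosomal and macrophage sums are lower in every WD library than in every ND library: the ribosomal sum runs from 15763 CPM (F31, RIN 7.7) to 78734 CPM (F28, RIN 4.9), and the WD macrophage sums are 723 and 718 CPM at RIN 7.7 and 6.2 and 516 to 530 CPM at RIN 6.5 to 6.9.

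Among sarcomere and stress genes, the myosin heavy chains were higher on WD without RIN. Myh6, the fast myosin heavy chain of mouse ventricle, had 6998, 7839, 4038, 6922 and 7040 CPM in ND and 17854, 13286, 13085, 12262 and 12709 CPM in WD (log2 difference 1.08, edgeR adjusted p = 0.0011; 0.73 and p = 0.2 with RIN). Myh7, the slow form that rises in stressed hearts, had 92.8, 51.8, 28.4, 65.2 and 53.9 CPM in ND and 860, 168, 162, 97.5 and 163 CPM in WD (log2 difference 2.31, edgeR adjusted p = 0.0057; 1.33 without F31; 0.45 and p = 0.8 with RIN). Both myosins were higher in every WD library, F31 stood far above the rest for Myh7, and neither was called with RIN. Myh6 and Myh7 are neighbours of similar sequence, and Mhrt is transcribed antisense from the same locus, so their counts may share reads where strand was not used. Myl2, the ventricular regulatory light chain, differed by -0.72 (edgeR adjusted p = 0.019; -0.08 and p = 0.92 with RIN). Of 27 sarcomere genes 8 were called higher and 5 lower without RIN, and of 17 cardiac stress genes 5 and 2, beside 23% higher and 21.3% lower over all genes tested, so these counts are not a result about either list. For sarcomere genes with RIN edgeR called 0 (2 higher and 3 lower at an unadjusted p under 0.05) and DESeq2 1 higher and 3 lower. For stress genes with RIN edgeR called 0 (2 higher and 2 lower at an unadjusted p under 0.05), DESeq2 called 1 higher and 1 lower, and the median went from 0.58 to 0.14.

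Single genes outside these lists also held in each of the 3 fits, though edgeR called 0 genes with libraries summed and RIN together. Ier3, an immediate early survival gene, had 70.4, 84.2, 65.9, 66.0 and 70.6 CPM in ND and 36.3, 36.2, 35.8, 35.02 and 34.4 CPM in WD, with an SD of 0.819 CPM in WD (log2 difference -1.01, SE 0.08, edgeR adjusted p = 7.5e-05; -1.12 and p = 0.0077 with RIN; p = 0.013 with libraries summed). Tspan4, a tetraspanin of migrasomes, had 47.7, 49.1, 54.0, 59.0 and 61.5 CPM in ND and 28.8, 22.7, 22.8, 21.9 and 19 CPM in WD (log2 difference -1.23, edgeR adjusted p = 8.4e-05; p = 0.018 with RIN). These 2 genes had the diets apart in all 10 libraries. Emp3 differed by -1.18 (p = 0.035 with RIN) and Angptl2, a secreted angiopoietin-like protein, by -0.70 (p = 0.048 with RIN). Of the 21 genes that the study lists for females, 19 were tested here, 17 were called without RIN, 7 with RIN and 7 in all 3 fits, 1 of them higher (Cldn5) and 6 lower. The study chose that list on libraries that include these, so its counts are not independent evidence. Among the higher genes that held, Cabp1, a neuronal calcium-binding protein, had 3.68, 3.44, 3.45, 3.27 and 3.23 CPM in ND and 10.1, 10.2, 10.6, 7.52 and 10.5 CPM in WD (log2 difference 1.52, edgeR adjusted p = 7.5e-05; p = 0.02 with RIN). Leo1, a subunit of the PAF1 complex of transcription elongation, differed by 1.45 (p = 0.038 with RIN) and Vwa3a by 1.63 (p = 0.041 with RIN). Erdr1y differed by 1.45, and by 1.87 with RIN (edgeR adjusted p = 0.0077), but it is one of near-identical copies in the pseudoautosomal region and its count is uncertain. Lypd8l had 10.6, 59.2, 18.7, 11.8 and 14.1 CPM in ND against 2.94, 2.16, 1.91, 6.14 and 3.02 CPM in WD (log2 difference -2.82, edgeR adjusted p = 0.0015; p = 0.14 with RIN). The difference was -2.08 without F27, its highest library, and -2.08 to -3.18 over the 24 settings run.

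The diet groups of the earlier female collection, at 530 days (4 ND and 5 WD libraries), show where the later groups differ. Of these ND libraries, F6 and F7 had near-identical levels (C1qb 59.0 and 58.7 CPM, Malat1 302 and 306 CPM). Both were summed in the interaction fit with libraries summed and count separately elsewhere, so n = 4 may overstate the number of distinct samples. In that collection RIN overlapped, at 5.9 to 7.6 in ND and 6.4 to 8.1 in WD, and edgeR called 1 gene, Dbp, with 684 at an unadjusted p under 0.05. The test of a diet by age interaction called 1595 genes (14.5%), 34 with RIN in the model and 4 with libraries summed. Those 4 were all higher, so no interaction below 0 was called with libraries summed, and those of C1qb and Dbp were not called with RIN either. For macrophage genes the group apart was ND at 640 days. Scaled together over the 19 females, the 17 tested markers summed to 1402 ± 198 CPM (SD, n = 5; 1169 to 1705) in ND at 640 days, against 630 ± 112 (SD, n = 5) in WD at 640 days, 656 ± 188 (SD, n = 4) in ND at 530 days and 562 ± 102 (SD, n = 5) in WD at 530 days. The lowest ND library at 640 days was above the highest of the other 14 females, F8 at 937 CPM, which also had the lowest RIN of its collection. For C1qb the means were 178, 70.9, 70.4 and 60.7 CPM in the same order, and the interaction was called (-1.12, edgeR adjusted p = 0.0094). Of the 17 macrophage genes 7 had a called interaction, as had 12 of 20 endothelial genes. So had 44 of 79 cytosolic ribosomal genes, whose list summed to 55779 CPM in ND at 640 days against 25178, 24619 and 22082 CPM. The same group stood apart in the other direction for Col5a3, with 10.7 CPM in ND at 640 days against 49.6, 34.9 and 41.9 CPM (interaction 1.94, edgeR adjusted p = 0.0013), and for Malat1, with 79.1 CPM against 321, 297 and 382 CPM (interaction 1.65, p = 0.0045). Kdr likewise had 97.3 CPM there against 235, 179 and 174 CPM (interaction 1.32, p = 0.0013). RIN, age and the diet group cannot be told apart for these genes, because RIN was 4.1 to 6.0 in the ND libraries at 640 days and 5.9 to 8.1 in the other females.

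Of the 12 clock output genes, 9 were below 0 at 640 days and 10 at 530 days (medians -0.55 and -0.44), and Dbp alone was called at 530 days. Macrophage genes had a median of -0.25 at 530 days with 14 of 17 negative and none called, and the 2 lists were not tested against each other. Dbp was 124 ± 14.6 CPM (SD, n = 4) in ND and 71.6 ± 5.60 (SD, n = 5) in WD at 530 days, and 126 ± 14.3 (SD, n = 5) and 51.6 ± 7.21 (SD, n = 5) at 640 days on the same scale. Its diet difference was -0.78 at 530 days (edgeR adjusted p = 0.029) and the interaction was -0.49 (p = 0.035), a call lost with RIN and with libraries summed. Ciart was 15.2 CPM in ND and 7.02 CPM in WD at 530 days, and 14.7 and 5.48 CPM at 640 days, with an interaction of -0.33 (edgeR adjusted p = 0.52). The ND means of both genes at the 2 ages differed by less than their SD. Per3 differed by -0.69 at 530 days and was not called there (edgeR adjusted p = 0.56), with an interaction of 0.08 (p = 0.79). Over the 12 output arm genes the median diet difference at 530 days was -0.44, with 10 of 12 negative, beside -0.55 at 640 days. Of the 12 genes, 2 had a called interaction, Dbp and Nr1d2, beside 14.5% of all genes tested.

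Markers of cells from outside the RV wall were checked beside these results. Red blood cell genes summed to 89.6 to 778 CPM in ND and 186 to 372 CPM in WD, and edgeR called 0 of the 5 tested without RIN, with 1 at an unadjusted p under 0.05. Myl7, the atrial light chain, was 0.13 to 24.2 CPM, with the highest value in WD F34, and the atrial list summed to 505 to 706 CPM. Adipocyte markers summed to 71.3 to 83.7 CPM in ND and 67.9 to 99.2 CPM in WD. These ranges overlapped between the diets, unlike the macrophage sum. The 5 red blood cell genes tested were nevertheless all below 0 without RIN and with RIN (medians -0.50 and -0.60). The sum of the B and plasma cell markers did not overlap, at 132.58 to 250.64 CPM in ND and 100.31 to 131.61 CPM in WD. The part of other cells in the named differences was not tested.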

How the data were processed

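RV RNA of 10 sham female libraries was analysed from the raw counts per gene that the authors deposited. The authors aligned paired-end poly-A reads to mm39 with STAR 2.7.8a and counted them with HTSeq-count over a custom gene model holding only the final 500 bp of every gene on its 3′ side; no normalization was applied. Strand setting and annotation release are not given in the sources used here. Of the 76 columns, 37 were not used (irradiated libraries, and 1 that the labels place in no group), and 39 sham libraries enter the filter. Diet, exposure, RIN and sex come from the labels, and ages from the study's library table. Gene positions are from GENCODE vM39 (GRCm39), to which 56323 of 56941 genes matched.

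A gene was tested where each of the 39 libraries held over 20 counts, with edgeR 4.0.16 (R 4.3.3, TMM factors over those genes, quasi-likelihood test, Benjamini-Hochberg over 10995 genes, threshold 0.05). Standard errors were derived from the F statistic. CPM used the same factors, and principal components used log2 CPM with a prior count of 2. Fits were run without RIN, with RIN as a number, with F32, F33 and F35 summed and F29 and F30 summed, and, for the shared slope, with RIN in 1 fit of 8 groups. The interaction fit with libraries summed also summed F6 and F7, which had near-identical levels. DESeq2 1.42.0, other filters and size factors, a robust fit, the 3 libraries per diet nearest in RIN and each library left out were alternatives. Leaving out F28 and F31, and DESeq2 with RIN on summed libraries, were added after seeing the data. The edgeR step was tested on simulated counts. The labels give the libraries as separate samples and the study describes separate mice, but some counts were near-identical, so p-values may measure technical spread. Depth was 12690702 to 19629175 counts per library.

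Named genes are the 10 higher and 10 lower with the largest change, those called in all of the 3 fits (up to 15 per direction), up to 4 called members and the defining members of each list described, and the study's female list. Some genes that the rule names are left out of the text. Members, lists and the rule were chosen with earlier results of these data known, and lists are described by counts and medians, without a set test.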

Additional observations from a re-analysis of the deposited data

Results flagged for a closer look

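By the gap to its nearest neighbour within its diet group, a library stood apart in 26 of 110 groups of 5 libraries examined (critical value 0.71), where chance would mark about 1 in 20. F31 accounted for 17, F28 for 5 and F34 for 4. The WD groups hold the near-identical F32, F33 and F35, and lists share genes, so these counts are not independent.

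WD library F31, which also had the highest RIN, 7.7, had a TMM factor of 1.24. It was the highest WD library in the summed level of collagens and extracellular matrix (8734 CPM), TGF-beta pathway genes (1691 CPM), endoplasmic reticulum stress genes (1669 CPM), clock output genes (590 CPM), lymphatic endothelial markers (159 CPM), adipocyte markers (99.2 CPM) and T and NK cell markers (24.7 CPM). It was the lowest in mitochondrially encoded genes (149769 CPM), ventricular cardiomyocyte markers (56797 CPM), glycolysis genes (13445 CPM), fatty acid uptake and beta-oxidation genes (11666 CPM), respiratory complex I (8830 CPM) and III (4627 CPM), antioxidant genes (3832 CPM), mitochondrial ribosomal proteins (3485 CPM) and proteasome genes (2738 CPM). ND library F28 was the highest of its group in mitochondrially encoded genes (300881 CPM), sarcomere genes (99310 CPM), fatty acid genes (25183 CPM), endothelial markers (2762 CPM) and class I MHC and interferon-induced genes (2546 CPM). WD library F34 was the highest WD library in translation factors (8914 CPM) and the lowest in heat shock genes (6894 CPM), immediate early genes (585 CPM) and Schwann cell and neuron markers (157 CPM).

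The diet difference changed between the collection ages in females for 1595 genes by edgeR's interaction test, 34 with RIN in the model and 4 with near-identical libraries summed.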

How the results depend on the processing

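The count of 4873 genes was 5186 with DESeq2, 4848 with DESeq2's size factors, 5404 (37.8% of 14280) with edgeR's filter, and 4117 to 5150 on leaving out 1 library. It moved to 2090 with the shared RIN slope, 1953 with libraries summed, 2496 with the 3 libraries per diet nearest in RIN, 147 with RIN and 0 with RIN and libraries summed. The 3 WD libraries nearest in RIN include the near-identical F33 and F35, which were kept apart in that fit. The 147 calls with RIN became 534 with DESeq2, 762 without F28 and F31, 2090 with the shared slope, 0 with libraries summed and 2 to 276 on leaving out 1 library. The 1953 calls with libraries summed became 3325 with DESeq2, 0 with RIN (182 by DESeq2) and 0 to 2284 on leaving out 1 column: 0 without F32, F33 and F35, 44 without F29 and F30, 78 without F31, 684 without F27 and 808 without F28. The 1595 interaction calls became 34 with RIN, 4 with libraries summed and 987 (without F28) to 2421 (without F34) on leaving out 1 library. The RIN difference was 1.345 to 1.82 on leaving out 1 library and 1.59 with near-identical libraries counted once (two-sided exact permutation test, p = 0.0571). The causes were not tested.

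With RIN the sign turned for Col1a1 (-0.10), Col3a1 (-0.32) and Per1 (-0.0454). With RIN and libraries summed it turned for Myh7 (-0.49), Col1a1 (-0.42), Col3a1 (-0.58), Per1 (-0.40), Nr1d1 (-0.15), Myl2 (0.17), Ndufa3 (0.0735), Cox7a2 (0.13), Cox7c (0.0542) and Atp5mj (0.0512). Of 91 named genes, 45 kept their direction and side of the threshold with RIN and 78 with libraries summed. No paired analysis was possible because the libraries carry no shared replicate numbers. With the filter used, 3 B and plasma cell and 1 T and NK cell markers were tested, and with edgeR's filter 6 of each.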
